A study of Mus musculus with 300 samples.

Results

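Txnip, Arrdc2, Arrdc3 and Arrdc4 encode arrestin-like proteins of the alpha-arrestin group, and their transcripts were followed in 4 tissues of mice given agonists of the peroxisome proliferator-activated receptors (PPARs). They are 4 of 18193 genes with a usable probe set on the Affymetrix mouse expression array used. The members were chosen with earlier results of these data known, and their probe sets were found by annotated symbol. Where a gene had more than 1 probe set, the one with the highest mean over all arrays stood for it. Txnip (Gene ID 56338) was read with 1415996_at, Arrdc2 (70807) with 1428352_at, Arrdc3 (105171) with 1454617_at and Arrdc4 (66412) with 1426818_at. Liver, heart, kidney and skeletal muscle came from 75 mice, giving 300 arrays. Mice were dosed orally with WY14643 (an agonist of PPAR-alpha, spelled differently in the study's design text), GW501516 (PPAR-delta) or rosiglitazone (PPAR-gamma) at 10 mg/kg, or with vehicle, for 4, 8 or 15 days. Each compound had 5 arrays per day and tissue, each vehicle group had 10, and each array was 1 mouse. The labels name no genotype; strain, sex and age are not given in the sources used here, nor is the hour at which tissue was taken.

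Alpha-arrestins are adaptors that bring NEDD4-type ubiquitin ligases to membrane proteins and so steer their internalisation. Txnip, thioredoxin-interacting protein, also binds thioredoxin, and both Txnip and Arrdc4 restrain glucose uptake by lowering glucose transporters at the cell surface. In cultured cells their genes are switched on together by the glucose-sensing Mondo factors with Mlx, which bind paired E-boxes in the promoters. Arrdc3 acts on beta-adrenergic receptors, and Arrdc2 is the least described of the 4.

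The start-site regions of Txnip and Arrdc4 are shown because these 2 genes share regulators as background and passed the test in opposite directions in heart; Arrdc2 is shown because its window holds the same spaced CACG pair as that of Txnip. The windows run 250 bases before to 50 after the annotated start (RefSeq, GRCm38.p6) and are written 5′ to 3′ on the gene's strand. Capitals mark matches to 3 motifs, each searched on both strands. The first is ATTGG, the inverted form of the CCAAT box. The second is the E-box CACGTG. The third, added after the sequences had been seen, is a pair of CACG with 7 bases between them. The Txnip window lies at chr3:96557707-96558006 on the plus strand, that of Arrdc4 at chr7:68749189-68749488 on the minus strand, and that of Arrdc2 at chr8:70839671-70839970 on the minus strand.
Txnip: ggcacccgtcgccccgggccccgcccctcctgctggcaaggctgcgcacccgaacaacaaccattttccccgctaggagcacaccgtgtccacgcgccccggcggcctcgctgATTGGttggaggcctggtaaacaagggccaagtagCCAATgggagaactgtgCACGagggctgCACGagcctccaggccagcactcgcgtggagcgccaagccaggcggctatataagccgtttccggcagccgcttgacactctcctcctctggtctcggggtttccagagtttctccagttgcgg
Arrdc4: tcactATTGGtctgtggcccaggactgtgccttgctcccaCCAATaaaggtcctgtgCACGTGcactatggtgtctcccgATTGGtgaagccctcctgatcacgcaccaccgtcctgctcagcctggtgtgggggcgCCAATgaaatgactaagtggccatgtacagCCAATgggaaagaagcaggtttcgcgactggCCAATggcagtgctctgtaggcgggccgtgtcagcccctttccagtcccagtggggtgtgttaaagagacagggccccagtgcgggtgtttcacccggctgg
Arrdc2: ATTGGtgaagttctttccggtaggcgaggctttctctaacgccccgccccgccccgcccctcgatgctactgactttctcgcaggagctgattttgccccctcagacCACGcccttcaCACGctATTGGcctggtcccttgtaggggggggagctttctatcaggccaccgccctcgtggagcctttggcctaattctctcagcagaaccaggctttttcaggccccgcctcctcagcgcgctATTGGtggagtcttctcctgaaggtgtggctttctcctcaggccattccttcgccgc

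ATTGG or its reverse CCAAT matched 6 times in the Arrdc4 window, 3 times in that of Arrdc2 and 2 times in that of Txnip. Among 32851 RefSeq windows of the same length, 37.4% held at least 1 match, 11.7% at least 2, 3.37% at least 3 and 0.0791% at least 6. The spaced CACG pair was in 0.615% of windows and began at position -85 from the start of Txnip and -143 from that of Arrdc2. CACGTG was in 7.15% of windows and began at position -193 from the start of Arrdc4. That E-box repeated after 5 bases was in 0% of windows. The looser form CANNTG repeated after 5 bases was in 0.767% of windows, and neither pair was in a member's window. Those of Txnip and Arrdc2 held no single E-box of the strict form either. Read 2 bases further, the CACG pair of Txnip is CACGAG repeated after 5 bases. CACGAG differs from CANNTG by 1 letter, so the search did not count it. The pair of Arrdc2 reads CACGCC and CACGCT, also with 5 bases between. TGTTTAC, a forkhead motif, was in 3.65% of windows, Txnip among them. The glucocorticoid motif TGTTCT, present in 19% of windows, was in none of the members' windows; these are letter matches in a short window and describe no binding.

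Averaged over the 3 days, 13 of the 48 combinations of member, tissue and compound passed the test (limma, Benjamini-Hochberg adjusted p under 0.05 over 18193 genes). Arrdc4 fell in 6 of its 12 combinations and was below vehicle in all 12 by its brighter probe set, while Txnip rose in 3, Arrdc2 in 3 and Arrdc3 in 1. No member rose in one tissue and fell in another. The share of all genes called, in either direction, in liver was 11.2% with WY14643, 13.9% with GW501516 and 16.2% with rosiglitazone. With the compounds in that order it was 1.44%, 4.17% and 7.51% for hearts, 1.74%, 6.79% and 1.52% for kidneys, and 0.104%, 0.857% and 1.65% for muscles. Of the members, liver had 1 call, with rosiglitazone; heart had 3 with GW501516 and 3 with rosiglitazone; kidney had 1 with each of these compounds; and muscle had 1 with WY14643, 1 with GW501516 and 2 with rosiglitazone. The 3 compounds of a day share their vehicle arrays, so their values are not independent of each other. In whole tissue, fewer cells of a type and less RNA per cell cannot be told apart.

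**Figure D1:**
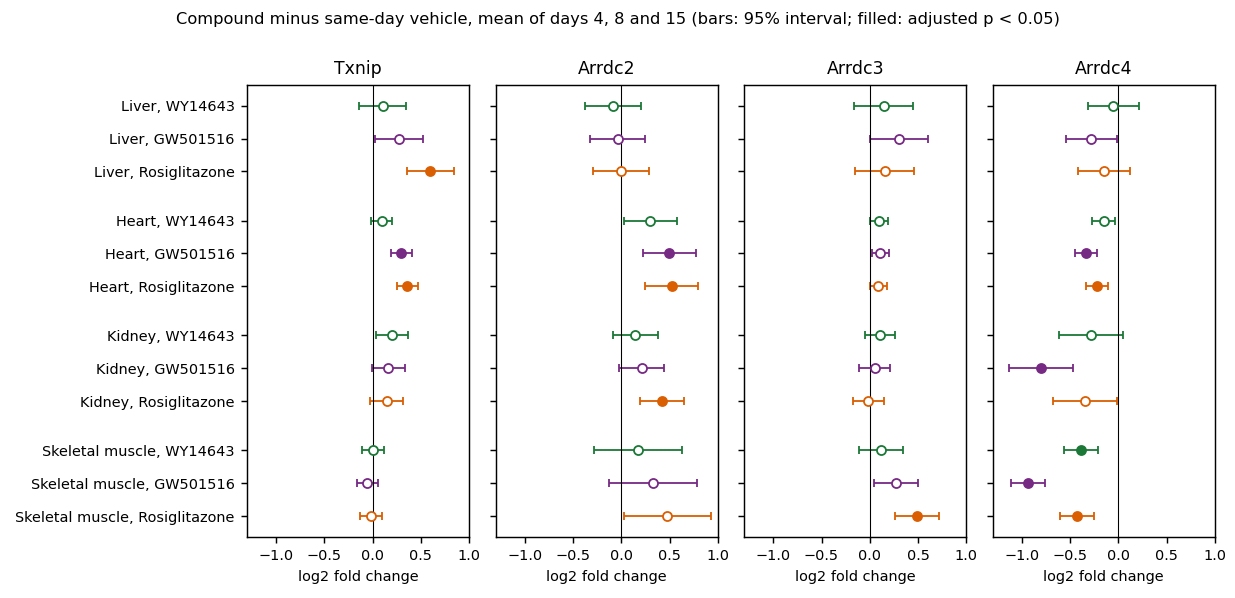
Mean log2 difference, compound minus same-day vehicle, over days 4, 8 and 15 for each member (panels) in the 12 combinations of tissue and compound (down the page), with 95% intervals from limma; filled points passed the adjusted test. Arrdc4 lies below 0 in all 12, reaching -0.93 in muscle with GW501516, and the filled points of the other members all lie above 0.

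Values below are the deposited log2 intensities, and differences are log2 differences of compound minus vehicle with their standard errors. Intensities of separate tissues are on different levels, so a gene's standing in a tissue is given as its percentile among the probe sets of the same array. In vehicle mice Txnip, by its brighter probe set, stood at the 92.4th percentile in liver, 98.2 in heart, 96.8 in kidney and 99.1 in muscle (SD 2.32, 0.450, 0.627 and 0.314, n = 30 arrays each). Arrdc3 stood at 96.1, 93.2, 95.5 and 92.9 in the same order of tissues (SD 1.54, 0.889, 1.02 and 1.46). Arrdc4 stood at 78.8, 83.1, 78.7 and 81.8 (SD 3.97, 1.99, 2.29 and 2.60). Arrdc2 stood at 78.7, 62.0, 65.3 and 86.7 (SD 4.39, 3.64, 3.21 and 5.17). Percentiles depend on how well each probe set binds, so they order tissues for a gene and not genes against each other. From high to low the order of Arrdc2 was muscle, liver, kidney and heart, with kidney and heart about 1 SD apart, and that of Txnip muscle, heart, kidney and liver. For Arrdc3 it was liver, kidney, heart and muscle and for Arrdc4 heart, muscle, liver and kidney; liver and kidney lay within 1 SD of each other for both, as did heart and muscle. The second Arrdc4 probe set gave another order, with liver at 55.7, muscle at 55.1, heart at 51.4 and kidney at 49.6. That of Txnip kept the order but stood lower, with muscle at 93.6, heart at 89.2, kidney at 83.9 and liver at 66.3.

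Some arrays stood apart: kidney GW501516 day 8 replicate 1 and heart rosiglitazone day 4 replicate 1 over all genes, and the mouse that is WY14643 day 4 replicate 2 by markers of neutrophils, whose 4 tissues were treated as one set. The kidney array deviated from its group mean by an SD of 0.896 over genes, against a median of 0.227 for kidney arrays and 0.414 for the next. The heart array deviated by 0.695, against 0.395 for the next heart array, and its mean over adipocyte markers was 11.02, against 4.70 to 10.21 in the other heart arrays. The mouse with neutrophil signal had a neutrophil marker mean of 11.49 in heart, against 6.24 to 8.76 in the others, of 9.16 in liver, against 5.25 to 7.72, and of 7.07 in kidney, against 3.76 to 5.78; in muscle it was 7.86, within the 3.56 to 7.95 of the others. Without these arrays 14 of the 48 combinations passed the test, where 10.3%, 14.8% and 17% of genes were called in liver with WY14643, GW501516 and rosiglitazone, 1.08%, 6.37% and 8.76% for hearts, 2.32%, 8.19% and 3.21% for kidneys, 0.0715%, 1.08% and 2.02% for muscles. Results below that pass or fail the test by these arrays are given with and without them. Markers of each labelled tissue were high in it, with hepatocyte genes at 13.85 to 14.21 in liver, cardiomyocyte genes at 12.52 to 14.65 in heart, tubule genes at 10.72 to 11.52 in kidney and fibre genes at 12.94 to 13.44 in muscle. The mean over 8 of 8 hepatocyte genes in heart was also high and uneven, at 5.62 to 11.32 with WY14643, 5.31 to 11.45 with GW501516, 5.95 to 11.90 with rosiglitazone and 5.82 to 11.83 with vehicle. In muscle the mean over the 3 measured of 6 adipocyte genes ran from 6.92 to 11.57 with WY14643, 6.82 to 11.02 with GW501516, 6.87 to 11.37 with rosiglitazone and 6.43 to 11.04 with vehicle. With the marker lists as covariates 12 combinations passed; the one lost was Arrdc4 in muscle with WY14643 (-0.38, adjusted p = 0.31).

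Arrdc4, which lowers glucose transporters at the surface, fell furthest in skeletal muscle with GW501516. On day 8 the 5 GW501516 muscles read 7.48, 7.63, 7.07, 7.55 and 7.16, against 8.19, 8.55 and 8.96 (lowest, median and highest of 10) in vehicle muscles. On day 15 they read 7.43, 7.38, 7.02, 7.78 and 7.62, against 7.96, 8.38 and 8.77. On both days every GW501516 muscle was below every vehicle muscle, a separation in either direction that 0.522% of genes showed on day 8 and 0.143% on day 15. On day 4 the GW501516 muscles read 7.65, 7.68, 7.22, 7.26 and 7.66, against 7.49, 8.18 and 8.61 in vehicle muscles, and the groups overlapped by the lowest vehicle array alone. Over the 3 days the difference was -0.93 ± 0.087 (95% interval -1.11 to -0.76, adjusted p = 3.06e-12), a ratio of 0.523, with 15 of 15 arrays below their vehicle mean. By day it was -0.69 (adjusted p = 0.0588, and 0.0423 without the arrays that stood apart) on day 4, -1.20 ± 0.15 (5.29e-07) on day 8 and -0.92 (4.05e-04) on day 15, where 0.0165%, 0.39% and 0.066% of genes were called. Vehicle muscles themselves read 0.40 ± 0.12 on day 8 relative to day 4 (adjusted p = 0.250).

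Muscle Arrdc4 fell less with the other compounds. Day 8 values were 8.06, 8.00, 7.71, 7.64 and 8.05 with WY14643 and 7.58, 7.82, 7.53, 7.92 and 7.65 with rosiglitazone, all below the lowest vehicle value of 8.19, where 0.198% and 0.89% of genes separated. The 3-day differences were -0.39 ± 0.087 with WY14643 (adjusted p = 0.0345, 15 of 15 arrays lower) and -0.43 ± 0.087 with rosiglitazone (0.00167, 13 of 15). The rosiglitazone fall passed alone on day 8 (-0.88, 1.80e-04; 0.852% of genes called), and without day 8 its mean was -0.21 (0.858). The WY14643 call was lost without the arrays that stood apart (-0.37, adjusted p = 0.0850) and without day 8 (-0.24, 0.389); its day 8 difference of -0.68 had an adjusted p of 0.0527 with all arrays and 0.0454 without those. Compared directly, WY14643 minus GW501516 was 0.55 ± 0.10 (0.00136; 0.572% of genes called) and GW501516 minus rosiglitazone was -0.50 ± 0.10 (0.0122; 0.066%). WY14643 minus rosiglitazone was 0.04, with an interval of -0.16 to 0.24.

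**Figure D2:**
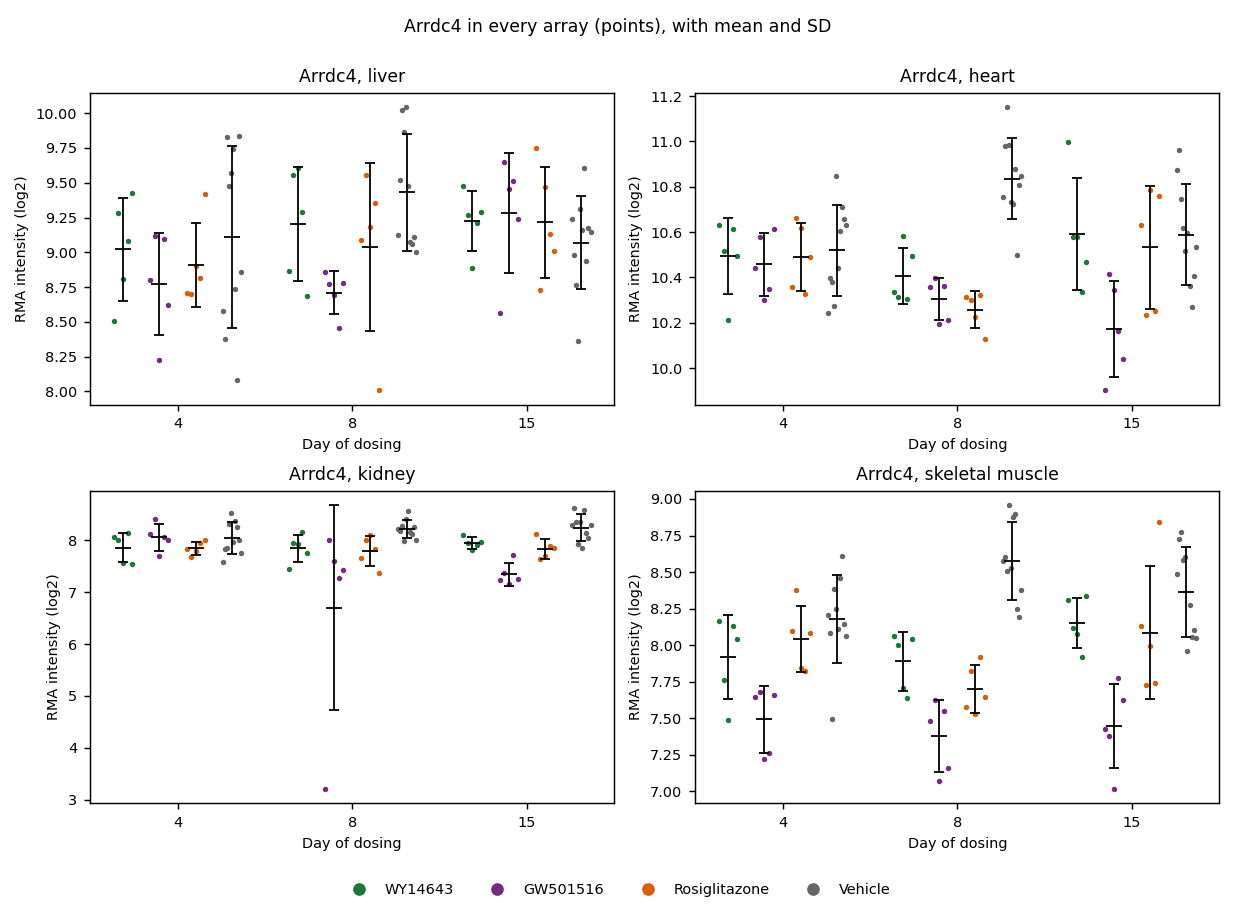
Deposited log2 intensity of Arrdc4 on every array by day of dosing, 1 panel per tissue, with group means and SDs; compounds are left of vehicle, and the vertical axes differ between panels and do not start at 0. Muscle arrays with GW501516 lie between 7.02 and 7.78 on all 3 days, and the single low kidney point at 3.21 is GW501516 day 8 replicate 1.

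In heart the same gene fell with GW501516 and rosiglitazone. Day 8 hearts read 10.34, 10.31, 10.58, 10.31 and 10.50 with WY14643, 10.36, 10.40, 10.20, 10.36 and 10.21 with GW501516, and 10.31, 10.30, 10.22, 10.32 and 10.13 with rosiglitazone, against 10.50, 10.83 and 11.15 in vehicle hearts. The GW501516 and rosiglitazone hearts were all below every vehicle heart, where 1.43% and 3.14% of genes separated in either direction, and the WY14643 hearts overlapped with vehicle. The day 8 differences were -0.43 ± 0.10 with WY14643 (adjusted p = 0.0230; 0.434% of genes called), -0.53 with GW501516 (5.02e-04; 1.63%) and -0.58 with rosiglitazone (5.59e-05; 4.18%). On day 15 GW501516 hearts read 9.90, 10.42, 10.34, 10.17 and 10.04, against 10.27, 10.57 and 10.96, a difference of -0.42 (0.0216; 0.764%). Vehicle hearts themselves moved: day 8 minus day 4 was 0.32 ± 0.083 (adjusted p = 0.0383; 0.786% of genes called). Over 3 days the differences were -0.34 ± 0.058 with GW501516 (5.11e-05, 13 of 15 arrays lower) and -0.22 ± 0.058 with rosiglitazone (0.00896, 10 of 15); without day 8 they were -0.24 (0.192) and -0.04 (0.801).

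In kidney Arrdc4 fell with GW501516, and here 1 array weighs heavily. On day 8 the GW501516 kidneys read 3.21, 8.01, 7.59, 7.28 and 7.43, against 7.98, 8.20 and 8.58 in vehicle kidneys, the 3.21 being the array that stood apart and the 8.01 overlapping with vehicle. On day 15 they read 7.23, 7.37, 7.16, 7.71 and 7.25, against 7.86, 8.29 and 8.63, with no overlap (1.09% of genes). On day 4 the values, 8.12, 8.42, 7.70, 8.07 and 8.00 against 7.59, 7.98 and 8.52, lay within each other's range. The 3-day difference was -0.80 ± 0.17 (adjusted p = 9.24e-04, 12 of 15 arrays lower) with all arrays and -0.51 ± 0.077 (1.80e-06) without those that stood apart. Leaving them out also narrowed the spread of the tissue: the differences with WY14643 and rosiglitazone were -0.28 (0.658) and -0.34 (0.526) with all arrays, and -0.30 ± 0.077 (0.0193) and -0.34 ± 0.075 (0.00235) without them. On day 8 GW501516 minus vehicle was -1.52 ± 0.29 with all arrays (8.18e-04; 9.36% of genes called) and -0.64 ± 0.14 without those that stood apart (0.00703). On day 15 it was -0.90 ± 0.29 with all arrays, which did not pass (0.112), and -0.90 ± 0.13 without them (1.31e-06).

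The second Arrdc4 probe set, 1424759_at, did not repeat the kidney result: GW501516 minus vehicle was 0.12 ± 0.11 (adjusted p = 0.569), and without the arrays that stood apart all 3 kidney differences were within 0.02 of 0. In muscle it fell with GW501516 (-0.64 ± 0.094, 4.11e-06), and read -0.22 (0.354) with WY14643 and -0.17 (0.522) with rosiglitazone. In heart it fell with GW501516 (-0.25, 0.0399) and read -0.13 (0.318) with rosiglitazone. In liver it read above vehicle with all 3 compounds, by 0.13, 0.18 and 0.02 without the arrays that stood apart, and none of these passed. It is a dimmer probe set, at the 49.6th to 55.7th percentile of vehicle arrays by tissue, and the reason for the disagreement was not tested. In liver Arrdc4 passed on 1 day: GW501516 day 8 livers read 8.86, 8.77, 8.69, 8.45 and 8.78, against 9.0, 9.30 and 10.05, without overlap (2.39% of genes), a difference of -0.72 ± 0.23 (0.0351; 8.83% called). Its 3-day difference there was -0.28 (0.168).

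Txnip rose in liver with rosiglitazone and in heart with rosiglitazone and GW501516. Day 4 rosiglitazone livers read 11.73, 11.76, 12.20, 12.24 and 12.45, against 10.26, 11.10 and 11.67 in vehicle livers. All 5 were above all 10, a separation that 0.621% of genes showed, and the difference was 1.09 ± 0.21 (adjusted p = 0.00238; 1.23% called). On day 8 rosiglitazone livers read 11.78, 11.93, 11.78, 12.14 and 11.60, against 11.08, 11.52 and 12.08, and on day 15 11.94, 11.48, 11.72, 11.60 and 11.81, against 10.40, 11.49 and 12.06, overlapping on both days. The 3-day difference was 0.60 ± 0.12 (1.93e-04, 15 of 15 arrays higher), a ratio of 1.51; without day 4 it was 0.35 (0.11). Vehicle livers were higher on day 8 than on day 4 by 0.56 ± 0.17 (0.0304; 9.73% of genes called). The differences with WY14643 and GW501516 were 0.10 (0.707) and 0.27 ± 0.12 (0.14), and WY14643 minus rosiglitazone was -0.49 ± 0.14 (0.00820; 17.6% of genes called), with -0.97 on day 4 (0.00755; 7.31%).

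In heart Txnip rose mainly on day 4. Day 4 hearts read 13.85, 13.77, 13.74, 13.84 and 13.63 with GW501516 and 13.75, 13.60, 13.79, 13.85 and 13.80 with rosiglitazone, against 12.90, 13.20 and 13.45 in vehicle hearts. Every heart of both compounds was above every vehicle heart, where 0.302% and 0.165% of genes separated, while WY14643 hearts, at 13.50, 13.88, 13.46, 13.62 and 13.09, overlapped with vehicle. The day 4 differences were 0.56 ± 0.093 with GW501516 (3.94e-04; 0.126% called) and 0.55 with rosiglitazone (0.00242; 0.22%). On day 8 rosiglitazone hearts read 13.53, 13.90, 13.71, 13.85 and 13.30, against 13.14, 13.30 and 13.47, a difference of 0.35 (0.0147). The 3-day differences were 0.30 ± 0.053 with GW501516 (8.95e-05, 15 of 15 arrays higher) and 0.36 ± 0.053 with rosiglitazone (1.13e-06, 14 of 15), and 0.09 (0.450) with WY14643. By day GW501516 gave 0.56, 0.17 and 0.17 and rosiglitazone 0.55, 0.35 and 0.18, and without day 4 the means were 0.17 (0.11) and 0.26, of which only that of rosiglitazone passed. WY14643 minus GW501516 was -0.20 ± 0.062 (0.0493; 3.03% of genes called), WY14643 minus rosiglitazone was -0.26 ± 0.062 (0.00503; 6.12%), and GW501516 minus rosiglitazone was -0.06 with an interval of -0.18 to 0.06. For Arrdc4 on day 15 WY14643 minus GW501516 was 0.42 in heart (0.0132; 11.5%). In all, 5 of 48 differences between compounds over the 3 days passed, among 4 members, 4 tissues and 3 pairs, all of them in Txnip or Arrdc4. Without the arrays that stood apart 6 passed, the added one being Arrdc3 in muscle, where WY14643 minus rosiglitazone was -0.37 with all arrays (0.369) and -0.53 without them (0.00150).

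The second Txnip probe set, 1415997_at, gave 0.72 ± 0.18 in liver with rosiglitazone (adjusted p = 0.00183), and in heart 0.61 with GW501516 (7.71e-05) and 0.75 with rosiglitazone (6.13e-07). In kidney day 4 GW501516 values of 11.79, 11.60, 11.28, 11.45 and 11.70 were all above the vehicle values of 10.71, 11.02 and 11.26, a separation seen in 0.368% of genes, but passed the test only without the arrays that stood apart (0.54 ± 0.13, 0.0302). The 3-day kidney differences were 0.20 with WY14643, 0.16 with GW501516 and 0.14 with rosiglitazone (0.345, 0.260 and 0.712). In muscle they were 0.01, -0.06 and -0.02, with an interval of -0.13 to 0.10 for rosiglitazone.

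**Figure D3:**
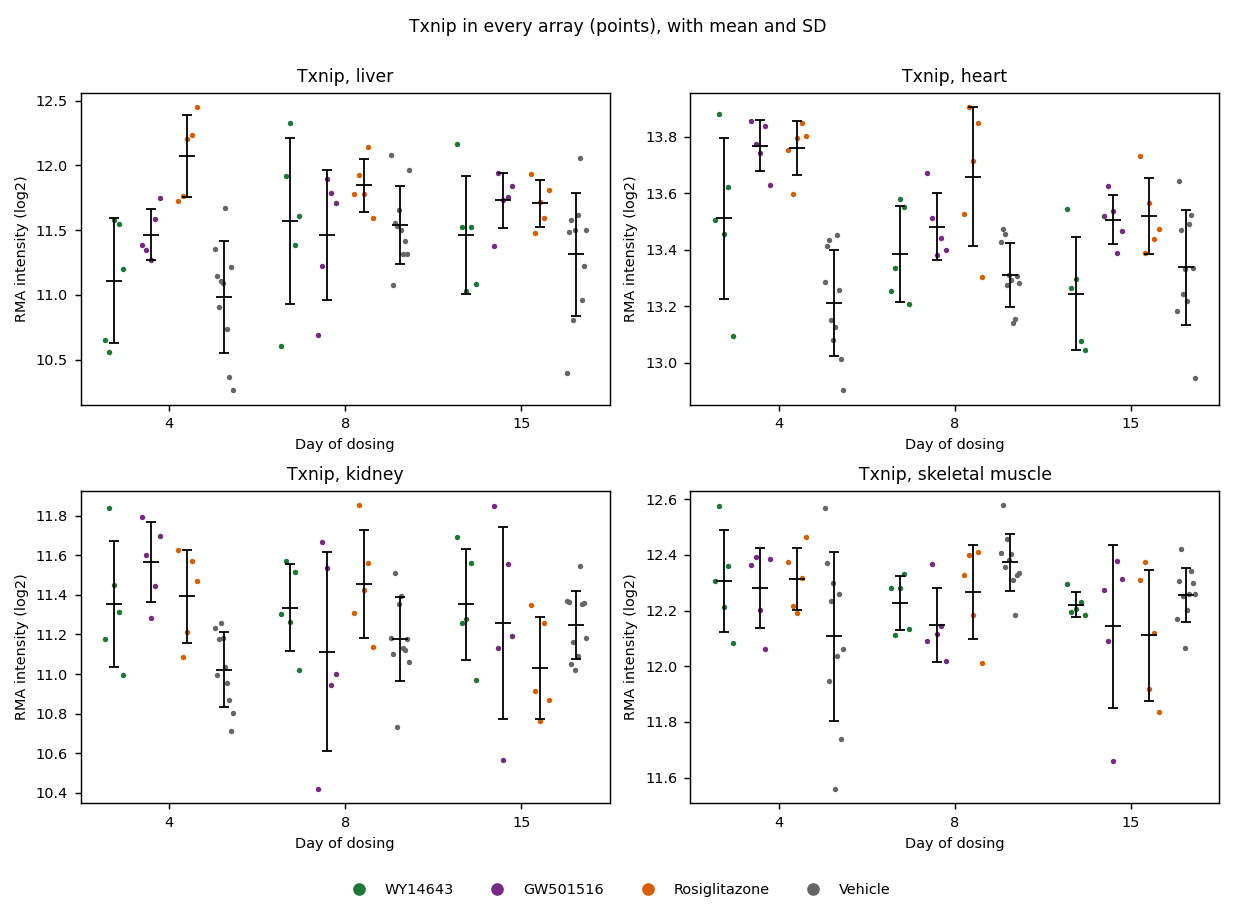
Deposited log2 intensity of Txnip on every array by day of dosing, 1 panel per tissue, with group means and SDs; compounds are left of vehicle, and the vertical axes differ between panels and do not start at 0. On day 4 all rosiglitazone livers lie at or above 11.73 and all GW501516 hearts at or above 13.63, above the highest vehicle values of 11.67 and 13.45.

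Arrdc2 rose in heart and kidney with modest size and wide spread; its spread within groups was at the 91.9th to 96.4th percentile of genes in the 4 tissues. Day 8 hearts read 9.80, 9.24, 9.38, 8.66 and 8.52 with GW501516 and 8.96, 8.91, 9.48, 9.76 and 8.36 with rosiglitazone, against 8.00, 8.29 and 8.67 in vehicle hearts. Most but not all treated hearts lay above the vehicle range, and the rosiglitazone difference of 0.77 ± 0.24 (adjusted p = 0.0480) passed where that of GW501516, 0.80, read 0.0686, and 0.0329 without the arrays that stood apart. Over the 3 days the heart differences were 0.50 ± 0.14 with GW501516 (0.0222, 14 of 15 arrays higher) and 0.52 ± 0.14 with rosiglitazone (0.00912, 12 of 15), and 0.30 (0.307) with WY14643. Without day 8 they were 0.34 (0.480) with GW501516 and 0.40 (0.269) with rosiglitazone. The GW501516 call was also lost without day 15 replicate 2 (0.43, 0.0700) or day 8 replicate 1 (0.44, 0.0561).

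In kidney Arrdc2 was higher with rosiglitazone by 0.42 ± 0.12 (adjusted p = 0.0417, 14 of 15 arrays higher). Day 15 kidneys read 7.10, 7.27, 6.83, 8.65 and 7.12, against 6.41, 6.77 and 7.45, so 1 rosiglitazone kidney was far above the rest and the other 4 were within the vehicle range. This call was lost when any 1 of 20 arrays was left out, with a lowest value of 0.32 (0.171) without that 8.65. In muscle the day 8 rosiglitazone values of 9.60, 10.09, 10.23, 10.27 and 9.52, against 7.25, 8.46 and 9.69, gave 1.40 (0.0721), and 1.40 ± 0.37 (0.0400) without the arrays that stood apart. Vehicle muscles themselves read -0.77 ± 0.32 on day 8 relative to day 4 (0.469). The rosiglitazone differences on days 4 and 15 were -0.05 and 0.09, and the 3-day difference was 0.48 (0.40). In liver the 3-day differences were -0.09, -0.04 and -0.01, and liver minus heart was -0.54 ± 0.16 with GW501516 (0.0176; 10.2% of genes called) and -0.53 with rosiglitazone (0.0159; 12.5%).

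Arrdc3 rose in muscle with rosiglitazone. Day 8 muscles read 10.09, 10.27, 10.39, 10.39 and 10.26 with GW501516 and 10.57, 10.61, 10.60, 10.61 and 10.25 with rosiglitazone, against 9.52, 9.81 and 9.97 in vehicle muscles, and both compounds' arrays were all above all vehicle arrays (0.522% and 0.89% of genes). On day 15 rosiglitazone muscles read 10.22, 10.58, 10.46, 11.24 and 10.49, against 9.81, 10.02 and 10.38, and on day 4 10.55, 10.86, 10.57, 10.82 and 9.68, against 9.77, 10.46 and 10.68. The 3-day difference was 0.49 ± 0.11 (adjusted p = 0.00930, 14 of 15 arrays higher), with 0.27 (0.411) for GW501516 and, for WY14643, 0.12 with all arrays and -0.04 (0.907) without those that stood apart. No single day passed with all arrays; day 8 read 0.73 (0.0545), and 0.73 ± 0.14 (6.87e-04) without the arrays that stood apart. Vehicle muscles were at -0.49 on day 8 relative to day 4 (0.308 with all arrays), the only tissue where that vehicle difference was negative. Without the arrays that stood apart, 1 of the 4 vehicle tests of Arrdc3 between these days passed, as a fall. Without day 8 the rosiglitazone mean was 0.37 (0.738).

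Other Arrdc3 values turn on a single mouse. WY14643 day 4 muscles read 9.70, 12.10, 9.93, 9.58 and 9.56, and the livers of the same mice read 12.85, 9.69, 12.01, 12.93 and 12.29; the second in each list is the mouse with high neutrophil markers, highest in muscle and lowest in liver. Without it and the other arrays that stood apart, WY14643 muscles on day 4 differed from vehicle by -0.59 ± 0.15 (adjusted p = 0.0188), and the correlation of liver with muscle Arrdc3 over mice went to -0.09, against -0.52 with all 75. The part of neutrophil RNA in these values was not tested. In liver, heart and kidney the 3-day differences of Arrdc3 ran from -0.02 to 0.30 and none passed.

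**Figure D4:**
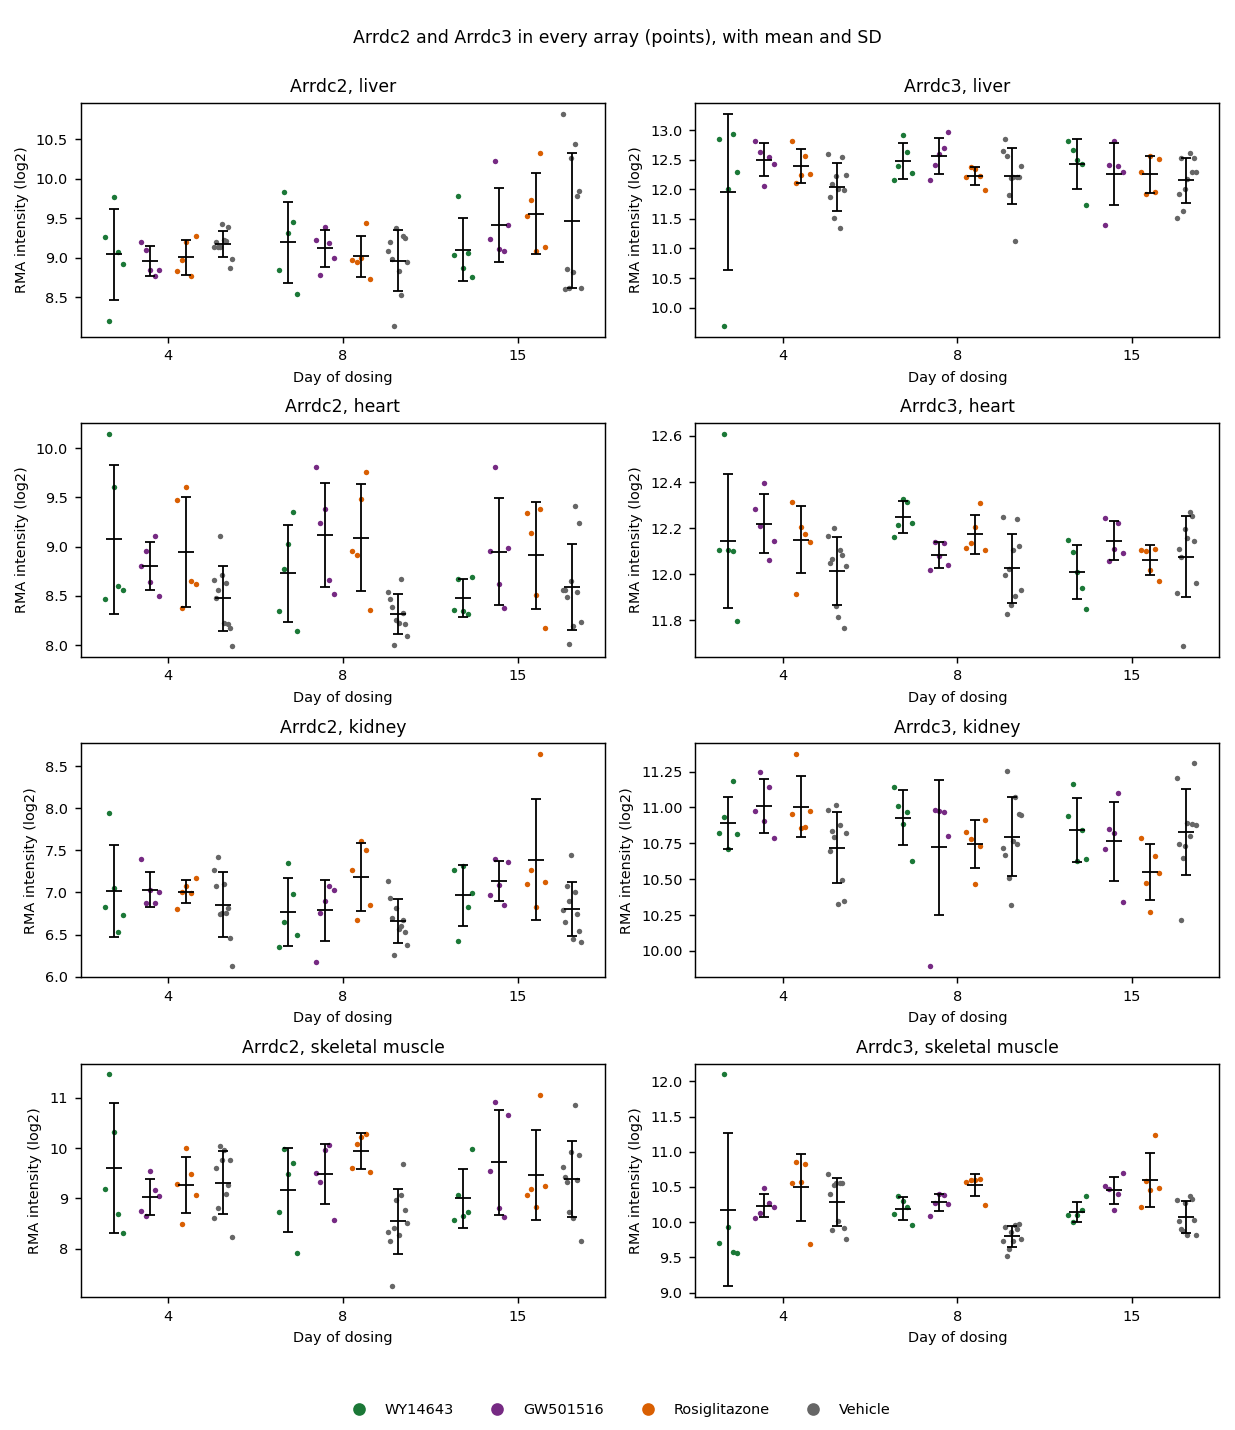
Deposited log2 intensity of Arrdc2 and Arrdc3 on every array by day of dosing in the 4 tissues, with group means and SDs; compounds are left of vehicle, and the vertical axes differ between panels and do not start at 0. In muscle on day 8 all rosiglitazone values of Arrdc3 (10.25 to 10.61) lie above the highest vehicle value of 9.97, and the lone point at 12.10 is WY14643 day 4 replicate 2.

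Differences between tissues were tested as interactions over the 75 mice. Of 72 such tests 8 passed with all arrays, among them the pair for Arrdc2 given above. Without the arrays that stood apart 12 passed, a fit for which no all-gene share of these tests is given here. The 4 added were Arrdc4 with GW501516, kidney minus muscle (0.13 with all arrays, 0.43 without), and, with rosiglitazone and unmoved in size, Arrdc3 in kidney minus muscle (-0.50, adjusted p = 0.0537 with all arrays and 0.00332 without), Arrdc2 in liver minus kidney (-0.43, 0.0965 and 0.0354) and Txnip in liver minus kidney (0.45, 0.0632 and 0.0319). Txnip responded more in heart than in muscle, by 0.35 ± 0.065 with GW501516 (adjusted p = 0.00113; 0.346% of genes called) and 0.37 with rosiglitazone (5.00e-04; 0.5%), and more in liver than in muscle with rosiglitazone (0.61 ± 0.14, 0.00349; 6.08%). For Arrdc4 with GW501516, heart minus muscle was 0.60 ± 0.080 (1.02e-06) and liver minus muscle 0.65 ± 0.15 (0.00393; 4.26%), so muscle had the deeper fall. For Arrdc3 with rosiglitazone, heart minus muscle was -0.40 ± 0.10 (0.0475). Txnip and Arrdc4 thus differed in where they moved: in muscle with GW501516 Txnip read -0.06 while Arrdc4 read -0.93, and in heart with the same compound they read 0.30 and -0.34.

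Day 15 minus day 4 passed in 0 of 48 combinations by limma with all arrays, where 12 had an unadjusted p under 0.05, and in 1, for Arrdc4, without the arrays that stood apart. No share of all genes is given for these counts. Of 144 single-day tests with all arrays 14 passed, in comparisons where 0% to 12.8% of genes were called. These were 9 for Arrdc4, 4 for Txnip and 1 for Arrdc2. The calls of Arrdc4 with all arrays fell on days 8 and 15 and those of Txnip on days 4 and 8. Without the arrays that stood apart 22 passed, a fit for which no all-gene share by day is given here.

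**Figure D5:**
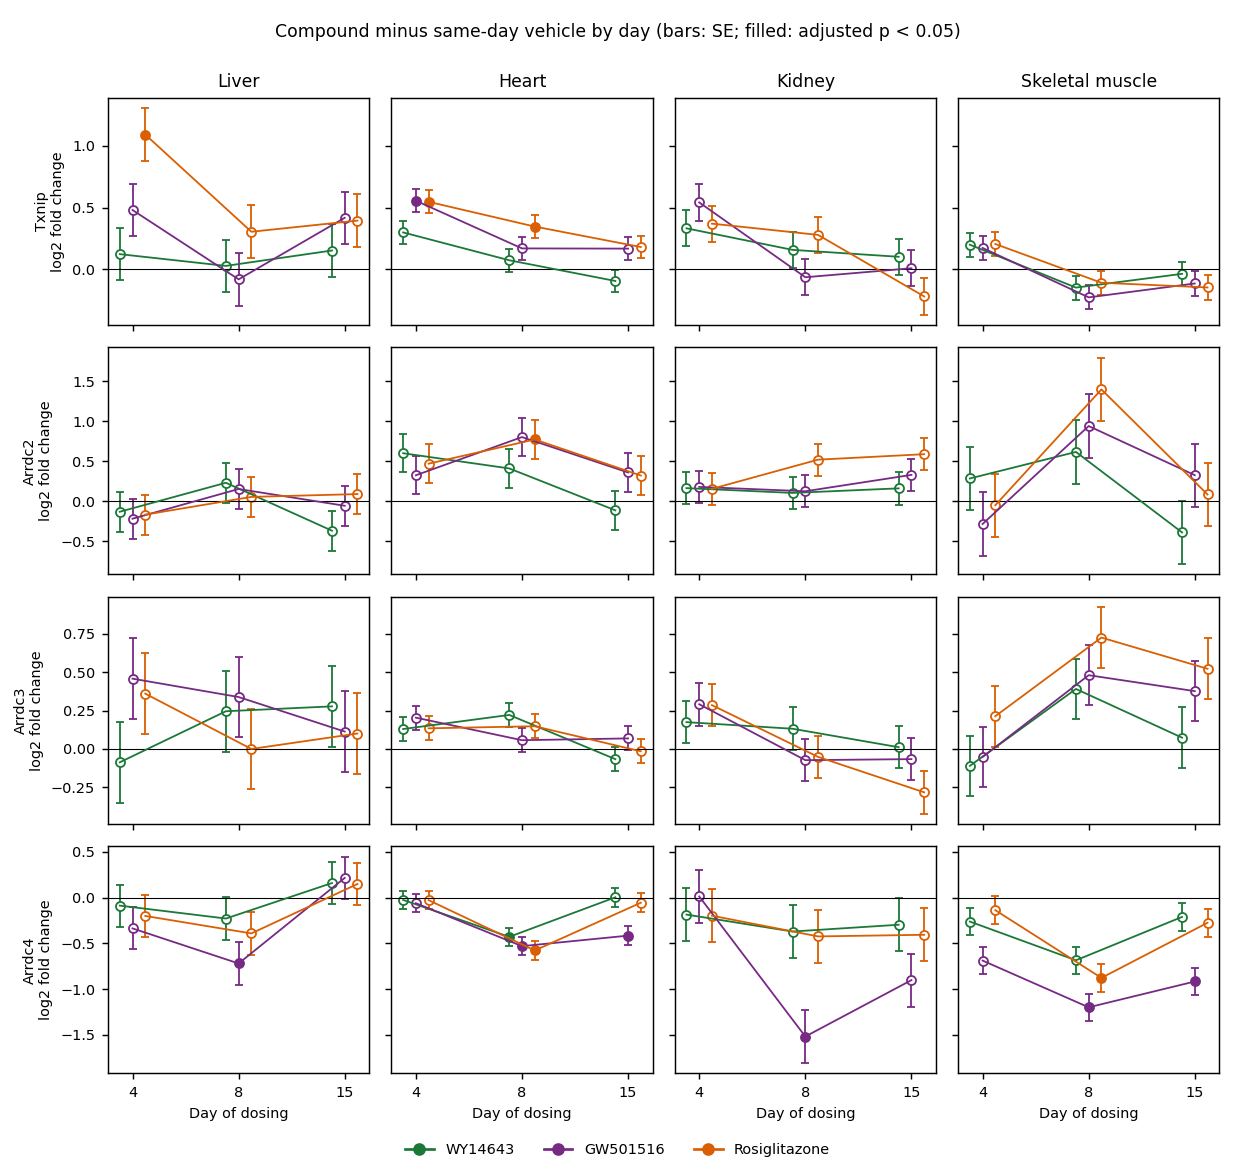
Log2 difference of compound minus vehicle with its standard error on days 4, 8 and 15, members down and tissues across; filled points passed the adjusted test. Arrdc4 in muscle with GW501516 reads -0.69, -1.20 and -0.92 over the days, and Txnip in liver with rosiglitazone is highest on day 4 at 1.09.

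Clock genes, whose transcripts cycle over the day, were read beside the members and differed widely between groups. Arntl, the core activator also called Bmal1, read 7.44, 7.70 and 8.25 (lowest, median and highest) in day 8 hearts with WY14643, 6.96, 7.22 and 7.58 with GW501516 and 6.53, 6.60 and 6.99 with rosiglitazone, against 8.85, 9.39 and 10.54 with vehicle. On day 4 the heart medians were 9.08, 7.58 and 7.19 with the compounds in that order, against 7.69 with vehicle. Vehicle hearts on day 4 ran from 6.53 to 8.43, below all vehicle hearts of day 8. Of 18 measured core clock genes, 8 rose and 2 fell in heart with GW501516 and 8 rose and 4 fell with rosiglitazone, while 0 passed by limma with WY14643 and 4 had an unadjusted p under 0.05. In liver 1 rose and 1 fell with WY14643, 8 and 4 with GW501516, and 9 and 4 with rosiglitazone; in kidney the counts were 1 and 0, 4 and 4, and 5 and 2, and in muscle 0 and 0 (5 at an unadjusted p under 0.05), 2 and 3, and 1 and 3. With the first components of the clock genes as covariates, 3 of the 13 calls remained by limma, all of them Arrdc4: kidney with GW501516 (-1.03), muscle with WY14643 (-0.40) and muscle with GW501516 (-0.81, adjusted p = 1.7e-06). Over all genes the same covariates moved the count of calls both ways: there were 20 with them against 2946 without for liver rosiglitazone and 510 against 1367 for heart rosiglitazone, but 2660 against 1236 for kidney GW501516 and 2179 against 2044 for liver WY14643. The Txnip differences that lost their call kept their size, at 0.66 with the covariates against 0.60 without in liver with rosiglitazone, 0.28 against 0.30 in heart with GW501516 and 0.35 against 0.36 in heart with rosiglitazone. With the covariates Arrdc2 went from 3 calls to 0, Arrdc3 from 1 to 0 and Arrdc4 from 6 to 3. The sizes of those lost calls are not given here, so the Txnip sizes do not stand for them. The hour of sampling is not given in the sources used here. The part of clock phase in the members' results was not tested further.

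Other genes of the same pathways were read from chosen lists, over combinations whose all-gene medians ran from -0.02 to 0.01. The lists overlap, so their counts are not independent. Per1, for example, is counted both as a clock gene and as a glucocorticoid-inducible gene. Pdk4 and Angptl4 are counted both as glucocorticoid-inducible genes and as PPAR targets, and Pdk4 also among the FOXO and fasting genes. Of 9 other arrestin-fold genes, 1 rose in liver with each compound, Vps26c with WY14643 (0.26 ± 0.042) and GW501516 (0.12) and Vps26a, a subunit of the retromer sorting complex, with rosiglitazone (0.12 ± 0.023). In the other tissues 0 passed by limma, and 0 to 4 per combination had an unadjusted p under 0.05. The list medians ran from -0.04 to 0.09. The Mondo factors and Mlx moved little: in liver with rosiglitazone Mlx (0.14 ± 0.037) and Mlxip, which encodes MondoA (0.21 ± 0.071), passed, and 0 of 5 passed by limma in the other 11 combinations, with 0 to 2 at an unadjusted p under 0.05 and medians of -0.04 to 0.06. Of 9 NEDD4-type ligases, the partners of arrestin-like proteins, 5 rose and 3 fell in liver with rosiglitazone, and list medians over the 12 combinations ran from -0.05 to 0.10; Itch read 0.40 ± 0.054 (adjusted p = 3.38e-08) and Nedd4l -0.35. Hecw2, another of these ligases, rose in muscle with all 3 compounds, by 0.60 ± 0.12 with WY14643, 0.74 ± 0.12 with GW501516 and 0.94 ± 0.12 with rosiglitazone.

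The thioredoxin system and the glucose transporters are what Txnip and Arrdc4 act on. In kidney with GW501516 3 of 18 thioredoxin system genes rose and 1 fell, in liver with rosiglitazone 3 rose and 1 fell, and in liver with GW501516 1 rose and 2 fell, with list medians of -0.04 to 0.09 over the 12 combinations. Of the same genes 0 passed by limma in muscle with any compound, where 1 to 5 had an unadjusted p under 0.05, and 1 rose and 2 fell in heart with rosiglitazone. Of 12 glucose transporter genes 0 passed by limma in heart or muscle, with 0 to 4 at an unadjusted p under 0.05 in each combination; in kidney with GW501516 2 rose and 1 fell, and medians ran from -0.12 to 0.06. Slc2a1, which encodes GLUT1, rose in liver with GW501516 (0.21) and rosiglitazone (0.31) and fell in kidney with GW501516 (-0.18). Of 20 glucocorticoid-inducible genes, 8 rose in liver, 9 in heart, 7 in kidney and 3 in muscle with rosiglitazone, with 0, 1, 0 and 0 falling; the list median over the 12 combinations ran from -0.003 to 0.22. Zbtb16 rose in all 12 combinations, by 0.38 to 1.77, and Fkbp5 rose in heart by 0.66, 0.46 and 0.79 with WY14643, GW501516 and rosiglitazone. Of 20 measured PPAR target genes, 15, 15 and 12 rose in liver with the compounds in that order. The counts for heart were 2, 6 and 5, for kidney 13, 13 and 2, and for muscle 1, 4 and 0, with medians of 0.004 to 0.71 over the 12 combinations.

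Some members varied together over mice beyond their group means. Over 75 mice Arrdc2 in heart correlated with Arrdc2 in muscle of the same mouse (Pearson r 0.65, Spearman rho 0.61, permutation test, p adjusted over 48 relations = 1.2e-04), with r of 0.59 without the 2 farthest mice and 0.61 without the arrays that stood apart. All 6 tissue pairs of Arrdc2 were positive, from 0.26 to 0.65. Arrdc4 in heart and muscle gave r 0.46 and rho 0.46 (3.2e-04; 0.44 and 0.47 with those mice or arrays left out), and Txnip in kidney and muscle 0.49 and 0.51 (1.2e-04; 0.44 and 0.48). Within a tissue, Arrdc2 and Arrdc3 in muscle gave r 0.60 and rho 0.57 (1.2e-04; 0.51 and 0.54), and Txnip and Arrdc4 in kidney 0.51 and 0.47 (1.2e-04; 0.45 and 0.46). Of 24 relations of a gene between tissues 14 had an adjusted p under 0.05, and of 24 between members within a tissue 12. The same relations were not tested for other genes, so whether these counts are particular to the members is not known. The marker lists correlated with the members by at most 0.368 in size in any tissue once the arrays that stood apart were left out.

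Of 16 carbohydrate-response genes, chosen as targets of the same glucose-sensing factors, 5 fell in liver with WY14643, 5 fell with GW501516, and 1 rose and 3 fell with rosiglitazone, with list medians of -0.27, -0.15 and -0.001. Pklr, which encodes liver pyruvate kinase, fell with WY14643 (-0.57 ± 0.077) and GW501516 (-0.32 ± 0.077), and G6pc, the catalytic subunit of glucose phosphatase, read -0.74 and -0.97. In muscle with GW501516, where Arrdc4 fell furthest, Klf10 fell alone of the 16 (-0.35 ± 0.073, adjusted p = 0.00335) and the list median was -0.23. In heart Klf10 rose with GW501516 (0.34 ± 0.057) and rosiglitazone (0.29), as Txnip did. Of 20 genes of forkhead (FOXO) and fasting programmes, 3 rose and 3 fell in liver, 4 rose and 1 fell in heart, 3 rose and 1 fell in kidney and 1 rose in muscle with rosiglitazone, 5 rose in kidney with GW501516, and medians over the 12 combinations ran from -0.03 to 0.08. Foxo1 rose in muscle with rosiglitazone (0.46 ± 0.10, 0.00471), where Arrdc3 rose, and also in kidney with that compound (0.20). Klf15, a glucocorticoid-induced factor, rose in heart with GW501516 (0.26) and rosiglitazone (0.27). Of 6 measured beta-adrenergic genes, 2 rose and 1 fell in liver with WY14643, 2 and 2 with GW501516 and 1 and 1 with rosiglitazone, with medians of -0.13 to 0.20 over the 12 combinations. Pde4b, a cyclic AMP phosphodiesterase, fell in liver with all 3 compounds, at -0.70 with WY14643, -0.68 with GW501516 and -0.72 with rosiglitazone.

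The genes whose responses were most like a member's were named by their correlation over the 36 differences of day, tissue and compound, points that share vehicle arrays and so carry no p. Nearest to Txnip were Hps3 (0.77) and Ctdsp2 (0.73), to Arrdc2 Slfn8 (0.75) and Klk10 (0.74), to Arrdc3 1810030O07Rik (0.70) and Aldh6a1 (0.68), and to Arrdc4 Mras (0.75) and Prr14l (0.74). Without the arrays that stood apart these were 0.76 and 0.70, 0.61 and 0.68, 0.77 and 0.57, and 0.72 and 0.62. Among the members themselves Txnip and Arrdc4 had the highest correlation over these 36 differences, 0.51, and Arrdc2 and Arrdc4 the lowest, -0.43. By deviations of single mice from their group mean, averaged over the 4 tissues, the nearest were Klf11 (0.62) to Txnip and Klf15 (0.57), Mast3 (0.54) and Per1 (0.53) to Arrdc2, with 0.60, 0.52, 0.52 and 0.49 without those arrays. The nearest to Arrdc3, Fam214a at 0.48, and to Arrdc4, Cbl at 0.47, fell to 0.22 and 0.29 without them.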

How the data were processed

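The authors deposited log2 intensities per probe set from Affymetrix mouse arrays, made by RMA in Partek, per the submitters' processing notes. Per the labels' protocols, RNA was extracted with Qiagen miRNeasy with DNase I and 100 ng was amplified with NuGEN Ovation kits. Of 45101 probe sets, 34945 named 1 gene, 932 named several and 9160 none in GEO's platform annotation; the brightest per gene gave 18193 genes. limma 3.58.1 in R 4.3.3 was fitted per tissue (lmFit, eBayes with trend, 12 groups, 75 arrays). Contrasts were compound minus same-day vehicle, by day and as the mean of 3 days, with Benjamini-Hochberg adjustment over all genes. Interactions between tissues used differences within mice. Arrays carry no read depth, so their number limits the precision. In simulated data for the WY14643 mean, 50 genes at each fold size among 18193, 72%, 82%, 66% and 56% of 1.25-fold changes were recovered in liver, heart, kidney and muscle. The changed genes were drawn at random, so these rates are not those of the members. The members' spread within groups ran from the 19.0th percentile of genes (Txnip in muscle) to the 97.8th (Arrdc4 in kidney). In liver it was at 90.9 to 95.1, where changes of that size are harder to find. The members and lists were chosen with earlier results of these data known. Outside the members, genes were named from the 5 highest correlations with a member or, per list and comparison, from up to 4 called genes with the largest change. Animals were matched across tissues by mouse number. Alternatives, of which leaving out the arrays that stood apart and the marker covariates were chosen after seeing the data, covered probe set, normalisation, filters, array weights, blocks, covariates, days and single arrays. Some list genes are not reported here.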

Additional observations from a re-analysis of the deposited data

Results flagged for a closer look

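Among 192 groups of 5 or 10 arrays tested for a single array far from the rest, 12 held one, where chance gives about 1 in 20. Arrdc2 read 10.23 in liver with GW501516 on day 15 (nearest other array 9.41), 8.65 in kidney with rosiglitazone on day 15 (7.27) and 11.05 in muscle with rosiglitazone on day 15 (9.24); the kidney and muscle values are of replicate 4. Arrdc3 read 9.69 in liver (12.01) and 12.10 in muscle (9.93) with WY14643 on day 4, both of replicate 2, the mouse with high neutrophil markers. It also read 9.89 in kidney with GW501516 on day 8 (10.80), 11.37 in kidney with rosiglitazone on day 4 (10.98), and 9.68 and 10.25 in muscle with rosiglitazone on days 4 and 8 (10.55 and 10.57). Arrdc4 read 9.42 in liver with rosiglitazone on day 4 (8.90), 3.21 in kidney with GW501516 on day 8 (7.28) and 7.49 in muscle with vehicle on day 4 (8.07).

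Responses differed between tissues in 8 of 72 interaction tests. For liver minus heart, Arrdc2 read -0.54 with GW501516 and -0.53 with rosiglitazone. For liver minus muscle, Arrdc4 read 0.65 with GW501516 and Txnip 0.61 with rosiglitazone. For heart minus muscle, Txnip read 0.35 with GW501516 and 0.37 with rosiglitazone, Arrdc4 0.60 with GW501516, and Arrdc3 -0.40 with rosiglitazone.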

How the results depend on the processing

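Against 13 calls, there were 3 with clock components as covariates, 6 without day 8, 9 with the second probe sets, 9 without day 15, 11 without day 4, 11 with the replicate number as a block, 15 with array weights or only the compound and vehicle in the fit, and, as alternatives chosen after seeing the data, 12 with marker covariates and 14 without the arrays that stood apart. These counts do not say which calls were shared. With clock components there were 0 calls in liver, heart or kidney with rosiglitazone, 0 in heart with GW501516 and 0 in muscle with rosiglitazone, and 1 pair of compounds differed against 5. Of those lost, Txnip in liver and heart kept its size (-0.53 against -0.49, -0.18 against -0.20 and -0.25 against -0.26) with wider errors. The other lost pair, Arrdc4 in muscle with WY14643 minus GW501516, was smaller, at 0.41 ± 0.11 (adjusted p = 0.183) against 0.55 ± 0.10. Without day 8 there was 1 call in liver with GW501516, 1 in heart with GW501516, 1 in heart with rosiglitazone, and 0 in kidney with rosiglitazone, muscle with WY14643 and muscle with rosiglitazone. Liver with rosiglitazone had 0 without day 4, kidney with GW501516 0 with the second probe set or without day 15, and kidney with rosiglitazone 0 with the replicate block or without day 15. Array weights, the smaller fit and leaving out the arrays that stood apart gave 1 in kidney with WY14643 and 2 in kidney with rosiglitazone. Muscle with WY14643 had 0 with the second probe set, without day 4, with the smaller fit, without the arrays that stood apart and with markers; muscle with rosiglitazone had 1 with the second probe set or without day 15; and muscle with GW501516 had 2 without day 4 or with the smaller fit. Arrdc4 in kidney with GW501516 reversed to 0.12 with the second probe set with all arrays, and read -0.005 without those that stood apart. On kidney GW501516 day 8 replicate 1 the second probe set read 7.19, against a mean of 5.28 in vehicle kidneys, while the brighter one read 3.21. Leaving out single arrays gave 2 to 3 calls in heart with GW501516, 0 to 1 in kidney with rosiglitazone and 0 to 1 in muscle with WY14643, and the same count in the other 9 comparisons. Without any 1 of 14 arrays the muscle WY14643 call of Arrdc4 had adjusted p of 0.0540 to 0.108. Where no cause is shown by the construction, the cause was not tested. Replicate numbers did not pair samples (median correlation of same-numbered deviations -0.005 to 0.047 by tissue), so the 11 calls with the replicate block are no paired result.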
